A study of Mus musculus with 10 samples.

Results

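The insulin-like growth factor (IGF) system was followed in mouse thyroid tumours through 10 genes: the ligands Igf1 and Igf2, the receptors Igf1r and Igf2r, the binding proteins Igfbp2, Igfbp3, Igfbp4 and Igfbp5, and the pappalysins Pappa and Pappa2. A gene was included when the platform annotation gave a probe set that symbol alone, and the brightest probe set on average over the 10 arrays represented it. All 10 genes were found, among 19938 genes measured. RNA from 5 papillary thyroid carcinomas (PTC) and 5 anaplastic thyroid carcinomas (ATC) was hybridised to Affymetrix whole-transcript arrays, with 1 array per tumour. PTC came from TPOCreER; BrafV600E mice, and ATC from mice with the same alleles that were also p53 -/-. TPOCreER is a Cre recombinase that tamoxifen activates and that the promoter of thyroid peroxidase drives in thyroid follicular cells, so both groups share the Cre, the Braf allele and a mixed C57BL/6;129SvJae background. Tumour type and p53 genotype changed together and cannot be told apart, and the labels give no ages and no tamoxifen schedule. The labels call the tumours biological replicates without saying that each came from a different animal, so p-values measure the spread between these tumours.

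IGF1 and IGF2 are secreted growth factors that signal through the receptor tyrosine kinase IGF1R, which activates the PI3K and MAPK pathways. IGF2R has no kinase activity and carries IGF2 to lysosomes. Binding proteins hold most extracellular IGF in complexes, and the pappalysins are metalloproteases that cleave some of these proteins and release the ligand: PAPP-A acts on IGFBP4 and IGFBP5, and PAPP-A2 on IGFBP3 and IGFBP5. In the thyroid, IGF1 acts together with thyrotropin on the growth of follicular cells.

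The IGF system differed between the tumour types in 4 of its 10 genes. Pappa2, Igfbp5 and Igf2r fell in ATC, by 20.2-fold, 4.26-fold and 1.31-fold, and Igf2 rose by 3.68-fold. The other 6 genes, Igf1, Igf1r, Igfbp2, Igfbp3, Igfbp4 and Pappa, did not pass the test. Of all 19938 genes, 21.2% passed limma's test with the Benjamini-Hochberg adjusted p below 0.05, 11.5% as higher and 9.72% as lower in ATC. The same 4 members were those whose groups did not overlap, against 16.9% of all genes. The median difference of the 10 genes was -0.26, beside -0.018 over all genes, and their median absolute difference was 0.48, beside 0.14. These comparisons are not at like intensity, because the 10 genes lay at percentiles 59.4 to 92.9 of mean level. Calls were more frequent among brighter genes: with only genes above the median of all means kept, 2106 rose and 1366 fell. Fewer genes were tested there, so the share called was well above 21.2%. All 10 members lay above that median, so 21.2% understates the share called among genes of like level. All levels here are log2 probe set intensities, and differences are ATC minus PTC in log2 units. Levels of different genes were not compared, because probe sets differ in how brightly they report a transcript.

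**Figure D1:**
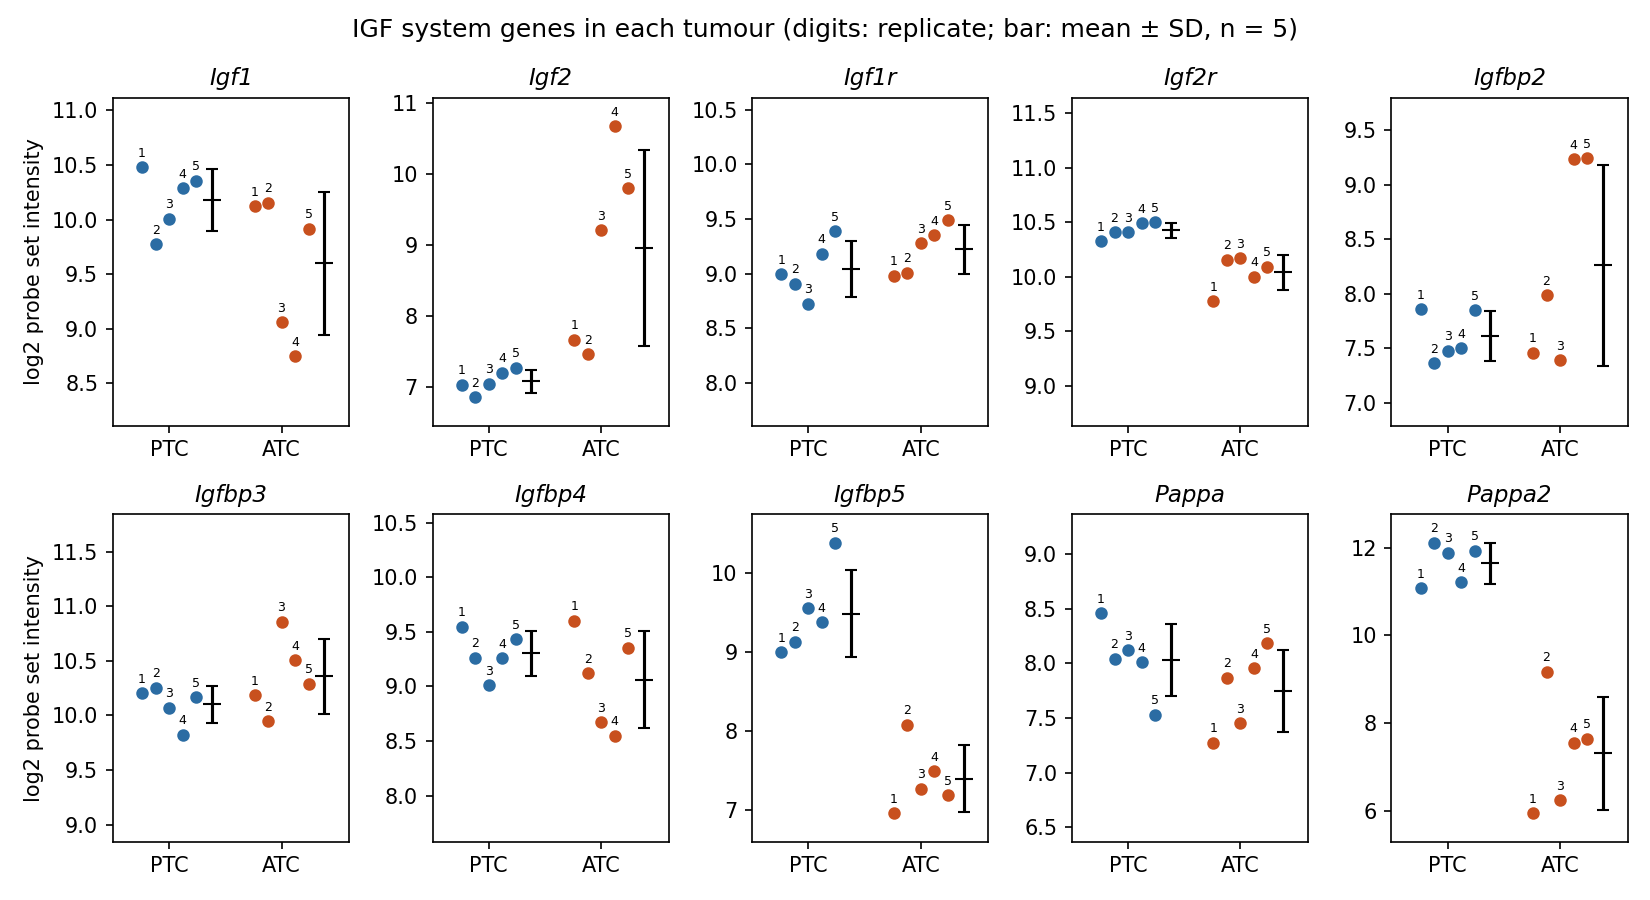
Log2 probe set intensity (vertical axes) of the 10 IGF system genes in each of 5 PTC (blue) and 5 ATC (orange) tumours; digits are replicate numbers and black bars are means ± SD (n = 5). The 2 groups do not overlap for Pappa2, Igfbp5, Igf2r and Igf2, and 3 ATC tumours carry most of the Igf2 difference.

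**Figure D2:**
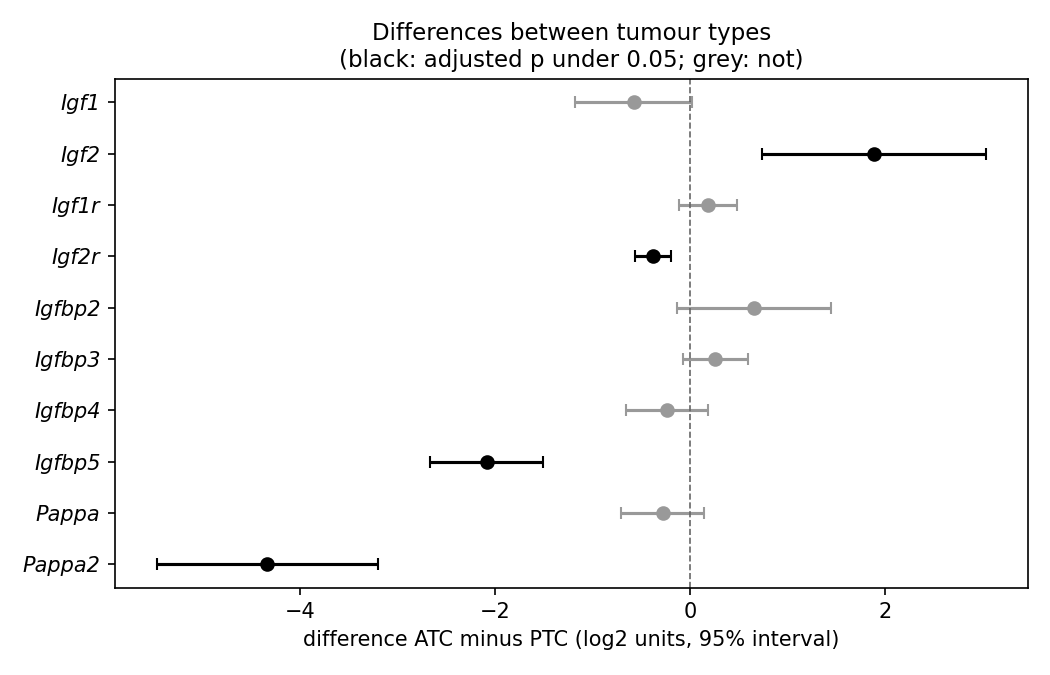
Difference between tumour types (horizontal axis, ATC minus PTC in log2 units) for each of the 10 genes, with 95% intervals from limma. Black points passed an adjusted p under 0.05; they range from -4.34 for Pappa2 to 1.88 for Igf2, and the 6 grey intervals include 0.

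The tumours were first set against markers of the cells they could hold. Thyroid follicular markers averaged 7.74 to 8.71 in PTC and 6.63 to 7.94 in ATC, and 3 of 11 measured ones fell. Thyroglobulin, Tg, ran from 11.28 to 12.88 in PTC and was 7.17, 12.001, 6.84, 11.48 and 10.23 in ATC replicates 1 to 5. Tg was not among the 3, since it did not pass (limma adjusted p = 0.0583). Its groups overlapped, as did those of the 3 genes that fell. Epithelial markers averaged 11.16 to 11.36 in PTC and 8.39 to 10.42 in ATC, with 4 of 6 falling, and macrophage markers averaged 9.28 to 9.73 and 10.65 to 11.41, with 10 of 10 rising. Fibroblast markers averaged 9.69 to 9.92 and 8.73 to 9.79 (4 of 10 fell, 0 rose), endothelial markers 8.44 to 8.88 and 8.13 to 8.60 (2 of 8 fell), and pericyte and smooth muscle markers 8.20 to 8.62 and 7.83 to 8.33 (1 of 6 fell). Skeletal muscle markers averaged 6.84 to 9.17 and 7.27 to 8.45, adipocyte markers 6.91 to 7.30 and 6.85 to 7.07, and parathyroid markers 5.62 to 10.24 and 5.47 to 9.71, with 0 called in each list. C cell markers averaged 7.28 to 8.27 and 7.01 to 7.66 (1 of 4 fell). All these counts stand beside 11.5% of all genes called higher and 9.72% called lower. In such bulk RNA, fewer cells of a type and less RNA per cell cannot be told apart.

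Pappa2, which encodes the protease PAPP-A2, showed the largest difference of the 10 genes. Its level was 11.08, 12.11, 11.89, 11.22 and 11.93 in PTC replicates 1 to 5, and 5.94, 9.17, 6.24, 7.56 and 7.64 in ATC replicates 1 to 5. Every PTC tumour was high and every ATC tumour lower, with a gap of almost 2 log2 units between the lowest PTC and the highest ATC tumour, and the ATC tumours were spread far more widely. The means were 11.65 ± 0.46 and 7.31 ± 1.29 (SD, n = 5 each), a difference of -4.34 (SE 0.52, 95% interval -5.47 to -3.20, limma adjusted p = 0.000321). Only 2 of the 19938 genes had an absolute difference larger than this one, which ranked at 3. ATC replicates 1 and 3, at 5.94 and 6.24, lay near the lower quartile of all probe sets (6.02 to 6.19 over the arrays), and detection above background is not given, so the size of the fall in these tumours may be compressed.

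Pappa2 is the only member with several probe sets, and all 3 gave the fall. Probe set 10359266, used above, was joined by 10359280, which went from 10.76 ± 0.53 to 6.38 ± 0.96 (difference -4.38, SE 0.43, limma adjusted p = 0.000317 over all probe sets). The third, 10359282, went from 11.26 ± 0.49 to 7.55 ± 0.73 (difference -3.71, SE 0.34, limma adjusted p = 0.000234 over all probe sets). Within PTC, replicate 2 was highest and replicate 1 lowest in each of the 3. Within ATC, replicate 2 was highest in each, at 9.17, 7.89 and 8.79. The lowest ATC tumour was replicate 1 in 10359266 and 10359280 (5.94 and 5.40) and replicate 3 in 10359282 (6.88).

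**Figure D3:**
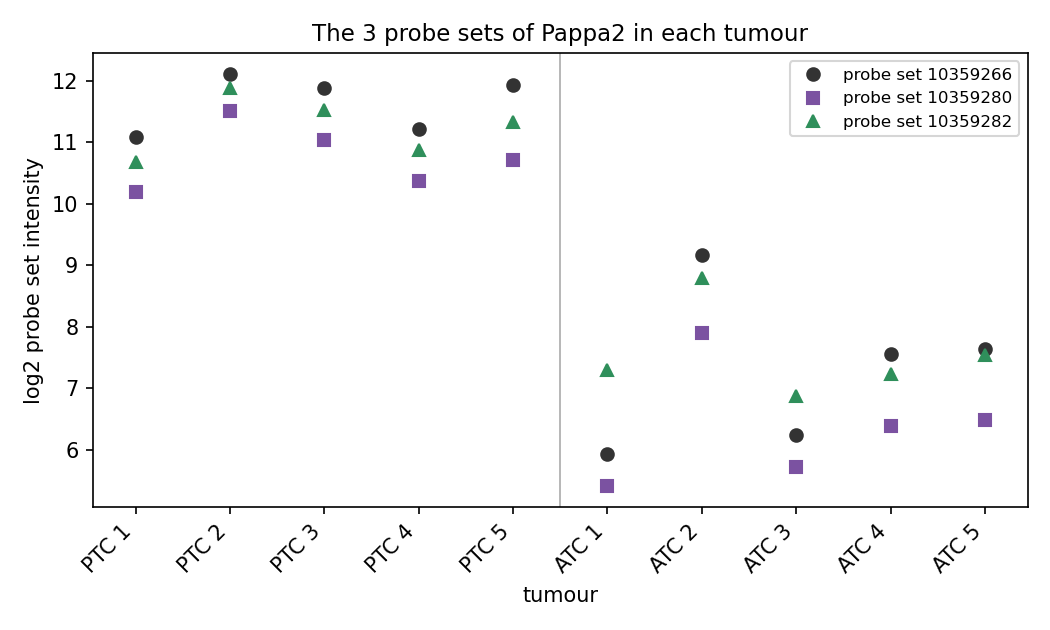
Log2 intensity (vertical axis) of the 3 probe sets of Pappa2 in each tumour (horizontal axis, 5 PTC then 5 ATC). All 3 are above 10 in every PTC tumour and below 10 in every ATC tumour, and ATC replicate 2 has the highest value of the ATC tumours in each.

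The order of the ATC tumours for Pappa2 can be set beside their levels of cell type markers. Epcam, an epithelial surface protein, was 6.34, 9.92, 6.58, 9.31 and 8.38 in ATC replicates 1 to 5, and the epithelial list averaged 8.39, 10.42, 8.68, 9.68 and 9.26. Replicate 2 was highest and replicates 1 and 3 lowest in Pappa2, Epcam and the epithelial list alike. This was not particular to epithelial markers. In the same tumours the thyroid follicular list averaged 6.63, 7.94, 6.85, 7.59 and 7.24. The endothelial list averaged 8.21, 8.60, 8.13, 8.38 and 8.26. Both lists and Tg also had replicate 2 highest and replicates 1 and 3 lowest, and the remaining marker lists did not. The part of these cell types in the Pappa2 difference was not tested. The 3 genes whose course over the 10 tumours was nearest to that of Pappa2, by the root mean square difference after each gene was centred on its mean, were Cyp2f2 (0.52), Mal2 (0.62) and Chl1 (0.63). Cyp2f2 encodes a cytochrome of airway club cells, Mal2 a protein of apical transport in epithelia and Chl1 a cell adhesion molecule of the L1 family. Cyp2f2 fell by 3.78 (SE 0.61), Mal2 fell by 3.34 (SE 0.55) and Chl1 fell by 3.25 (SE 0.50), and each was highest in ATC replicate 2 among the ATC tumours (10.15, 9.79 and 9.01). These 3 genes were picked for their nearness over the same tumours. Their falls and shared highest ATC tumour follow from that choice and are no separate result.

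Pappa, the gene of the related protease PAPP-A, did not share this difference. It was 8.46, 8.04, 8.12, 8.01 and 7.53 in PTC replicates 1 to 5 and 7.27, 7.87, 7.45, 7.95 and 8.19 in ATC replicates 1 to 5. The groups overlapped, and PTC replicate 5 lay below 3 of the ATC tumours. The difference was -0.29 (SE 0.20, 95% interval -0.71 to 0.14, limma adjusted p = 0.352), so a fall of more than 0.71 lies outside the interval. The Pappa2 and Pappa intervals do not overlap, although the difference between the 2 genes was not tested itself.

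Igfbp5, a binding protein that both pappalysins cleave, fell as well. It was 8.99, 9.13, 9.55, 9.37 and 10.38 in PTC replicates 1 to 5 and 6.95, 8.08, 7.27, 7.49 and 7.18 in ATC replicates 1 to 5. The groups were separate; PTC replicate 5 was the highest tumour and ATC replicate 2 the highest of its group. The means were 9.48 ± 0.55 and 7.39 ± 0.43 (SD, n = 5 each), a difference of -2.09 (SE 0.27, 95% interval -2.67 to -1.51, limma adjusted p = 0.000419). Fibroblasts and muscle are known sources of IGFBP5. In ATC replicates 1 to 5 the fibroblast list averaged 9.18, 9.23, 8.73, 9.03 and 9.79, and the skeletal muscle list 7.29, 8.45, 7.28, 7.27 and 8.44. The epithelial and thyroid follicular lists, given above for the same tumours, both shared with Igfbp5 its highest tumours (replicates 2 and 4) and its lowest (replicate 1). The part of these cell types in the Igfbp5 difference was not tested.

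The starts of the 2 genes that fell most are printed here from RefSeq (GRCm38.p6), as the 250 bases before the listed transcript start, 5′ to 3′ on the strand of the gene. Windows were matched by symbol for 9 of the 10 members. Capitals mark any match, on either strand, to 6 short motifs. The TATA box was searched as TATAAA. The CCAAT box was searched by the letters of its name. The GC box, which SP1 binds, was searched as GGGCGG. The site of AP-1 was searched as TGANTCA. The E-box that Snail and ZEB factors bind was searched as CAGGTG, and the core that NKX2 factors bind as CAAGTG. The Pappa2 window is chr1:158958176-158958425 on the minus strand and the Igfbp5 window is chr1:72874866-72875115 on the minus strand.
Pappa2: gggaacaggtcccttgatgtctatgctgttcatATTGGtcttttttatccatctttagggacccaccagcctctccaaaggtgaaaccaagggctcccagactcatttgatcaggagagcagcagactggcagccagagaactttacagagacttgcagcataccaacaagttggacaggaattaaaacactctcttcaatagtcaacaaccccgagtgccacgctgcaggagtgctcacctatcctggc
Igfbp5: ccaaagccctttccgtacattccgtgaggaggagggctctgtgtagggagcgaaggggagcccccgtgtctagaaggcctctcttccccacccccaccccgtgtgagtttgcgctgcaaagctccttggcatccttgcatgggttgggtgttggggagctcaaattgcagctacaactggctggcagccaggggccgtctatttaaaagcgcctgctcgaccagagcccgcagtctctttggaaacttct
The Pappa2 window held 1 of the 6 motifs as searched, a CCAAT box on the opposite strand, and the Igfbp5 window held 0. The Pappa2 match lay 217 to 213 bases before the listed start, and variants of the 6 motifs were not searched. Among 32851 windows of this length, 33.8% held a CCAAT box, 32.7% a GC box, 17.2% the E-box, 12.4% a TATA box, 11.6% the NKX2 core and 6.75% an AP-1 site. The windows also differed in composition, with a GC content of 49.2% and 2 CpG sites for Pappa2 and 58.8% and 10 CpG sites for Igfbp5, beside medians of 52.4% and 6 over all windows. Motif matches describe letters in these windows and show no binding.

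The other 3 binding proteins did not pass the test. Igfbp2 was 7.86, 7.37, 7.48, 7.50 and 7.85 in PTC replicates 1 to 5 and 7.46, 7.99, 7.39, 9.23 and 9.24 in ATC replicates 1 to 5. ATC replicates 4 and 5 stood more than 1 log2 unit above every other tumour, and ATC replicates 1 and 3 lay within the PTC range. The difference was 0.65 (SE 0.36, 95% interval -0.14 to 1.44, limma adjusted p = 0.242), with an SD of 0.92 in ATC and 0.23 in PTC. In the gene order of GRCm38.p6, Igfbp2 and Igfbp5 are neighbours on chromosome 1, and the ATC tumours with the high Igfbp2 values had Igfbp5 at 7.49 and 7.18.

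Igfbp3, whose protein is the main carrier of IGF in blood, was 10.20, 10.25, 10.07, 9.82 and 10.17 in PTC replicates 1 to 5 and 10.19, 9.95, 10.86, 10.51 and 10.29 in ATC replicates 1 to 5. ATC replicate 3 was the highest tumour, and the groups overlapped (difference 0.26, SE 0.15, 95% interval -0.08 to 0.59, limma adjusted p = 0.283). Igfbp4, the substrate of PAPP-A, was 9.55, 9.26, 9.01, 9.26 and 9.43 in PTC replicates 1 to 5 and 9.60, 9.12, 8.67, 8.55 and 9.36 in ATC replicates 1 to 5. ATC replicates 3 and 4 were the lowest tumours and ATC replicate 1 the highest (difference -0.24, SE 0.19, 95% interval -0.66 to 0.18, limma adjusted p = 0.431).

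Igf2, the fetal growth factor gene that is expressed from the paternal copy, rose in ATC. It was 7.03, 6.85, 7.04, 7.19 and 7.26 in PTC replicates 1 to 5 and 7.66, 7.46, 9.20, 10.66 and 9.79 in ATC replicates 1 to 5. All PTC tumours were low and close together, ATC replicates 1 and 2 lay just above them, and ATC replicates 3, 4 and 5 were far higher. The means were 7.07 ± 0.16 and 8.96 ± 1.38 (SD, n = 5 each), a difference of 1.88 (SE 0.52, 95% interval 0.73 to 3.03, limma adjusted p = 0.0254). When single arrays were left out, the call was lost for PTC replicates 1, 2 and 3 and for ATC replicates 3 and 5 (differences 1.67 to 1.87, limma adjusted p 0.0506 to 0.0607). Without ATC replicate 4, the highest tumour, the difference was 1.45 and the call held.

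Skeletal muscle and fibroblasts can express Igf2. Their lists in the 5 ATC tumours are those given for Igfbp5, and their part in the Igf2 difference was not tested. The genes nearest in course to Igf2, by the same measure, were Serpini1 (0.47), a serine protease inhibitor of neurons, Pdk4 (0.49), a kinase that inhibits pyruvate dehydrogenase, and Ncam1 (0.53), the neural cell adhesion molecule. They rose by 1.58 (SE 0.36), 2.18 (SE 0.42) and 1.63 (SE 0.33). All 3 had their highest values in ATC, Pdk4 and Ncam1 in replicate 4 (10.95 and 10.53) and Serpini1 in replicate 5 (9.81). Their rises likewise follow from the choice of near genes.

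Igf1, which in tissues is made by stromal cells and macrophages, did not pass. It was 10.48, 9.77, 10.01, 10.29 and 10.36 in PTC replicates 1 to 5 and 10.12, 10.15, 9.06, 8.75 and 9.92 in ATC replicates 1 to 5. ATC replicates 3 and 4 were low, and the other ATC tumours lay within the PTC range. The difference was -0.58 (SE 0.27, 95% interval -1.18 to 0.017, limma adjusted p = 0.165). The 2 tumours low in Igf1 were also the lowest in Igfbp4 and were 2 of the 3 high in Igf2. Macrophage markers averaged 11.29, 10.88, 10.65, 11.13 and 11.41 in ATC replicates 1 to 5, all above PTC, and the macrophage receptor gene Csf1r rose from 9.66 ± 0.044 to 11.01 ± 0.42. The part of macrophages and stromal cells in the Igf1 values was not tested.

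Of the receptors, Igf2r fell by a small and even amount. It was 10.33, 10.41, 10.41, 10.49 and 10.50 in PTC replicates 1 to 5 and 9.78, 10.16, 10.17, 10.002 and 10.09 in ATC replicates 1 to 5. The groups were separate, ATC replicate 1 was the lowest tumour, and the spread was the smallest of the 10 genes in both groups. The means were 10.43 ± 0.070 and 10.04 ± 0.16 (SD, n = 5 each), a difference of -0.39 (SE 0.084, 95% interval -0.57 to -0.20, limma adjusted p = 0.00753). Igf1r, the signalling receptor, was 8.99, 8.91, 8.73, 9.18 and 9.39 in PTC replicates 1 to 5 and 8.98, 9.01, 9.28, 9.35 and 9.49 in ATC replicates 1 to 5. Its groups overlapped, and the difference was 0.18 (SE 0.14, 95% interval -0.12 to 0.48, limma adjusted p = 0.405), so a rise of more than 0.48 lies outside the interval.

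The spread between tumours was mostly wider in ATC. The SD was larger in ATC for 8 of the 10 genes, beside 68.6% of all genes, and the exceptions were Igf1r and Igfbp5. It was largest for Igf2 (1.38), Pappa2 (1.29), Igfbp2 (0.92) and Igf1 (0.65). The ATC tumours differed in which genes set them apart. Replicate 2 stayed nearest to PTC in Pappa2 and Igfbp5 and had the lowest Igf2 of its group. Replicate 4 had the highest Igf2 and the lowest Igf1 and Igfbp4, and replicates 4 and 5 shared the high Igfbp2.

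Other genes of the pathway were read from 7 lists with 63 members, of which 57 were measured and the other 6 were not analysed here. Of these, 9 rose, 8 fell and 40 did not pass, that is 17 of 57 beside 21.2% of all genes. That share is not at like intensity, since the 57 genes ran from percentile 14.1 to 99.2 of mean level and brighter genes were called more often. The counts of the single lists below stand beside 11.5% of all genes called higher and 9.72% called lower. The median difference of the 57 genes was 0.064. The count of 9 became 5 without PTC replicate 2, PTC replicate 4 or ATC replicate 3, and 4 without PTC replicate 3.

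**Figure D4:**
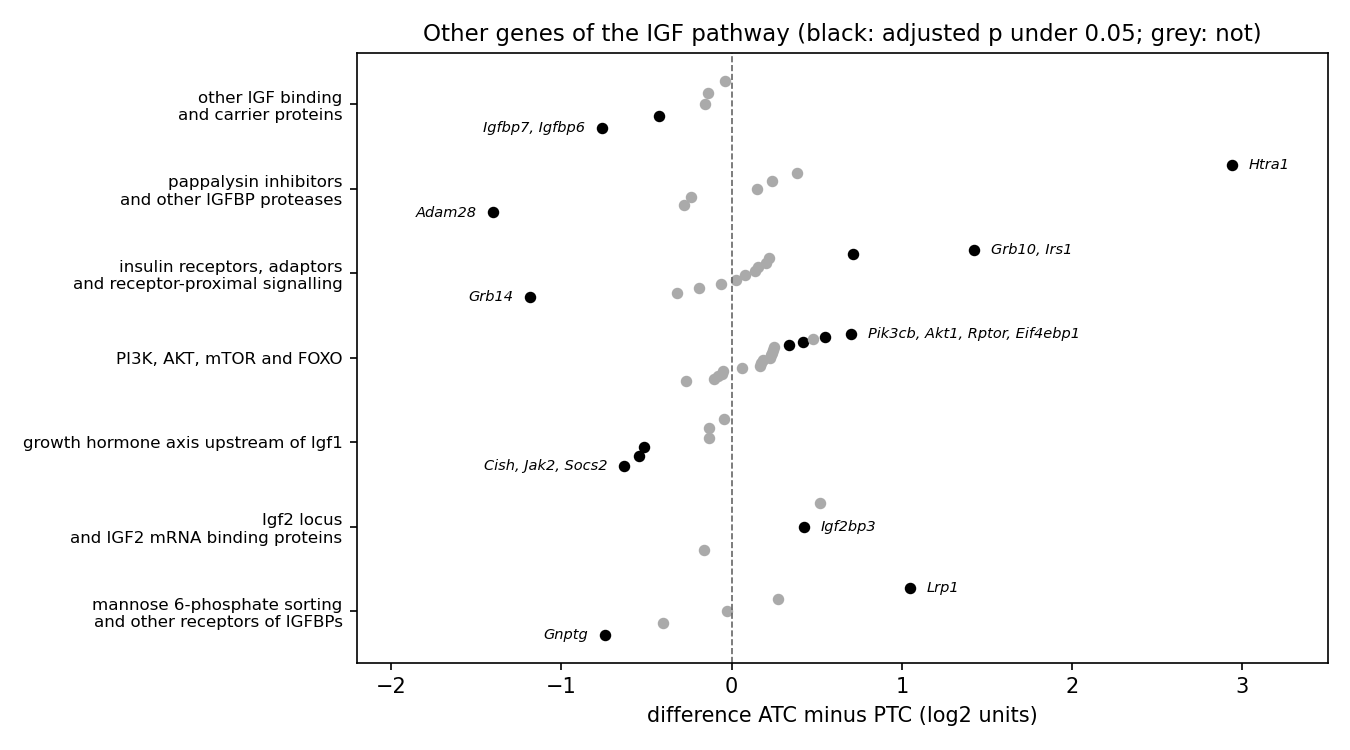
Difference between tumour types (horizontal axis, ATC minus PTC in log2 units) for 57 other genes of the IGF pathway in 7 lists (vertical axis). Black points with names passed an adjusted p under 0.05, and grey points did not; Htra1 lies farthest right at 2.94 and Adam28 farthest left at -1.40.

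Among other proteins that bind IGF or are named for it, 2 of 5 fell and 0 rose. Igfbp7, a secreted vessel and matrix protein with weak IGF binding, fell by 0.76 from 12.28 ± 0.14 to 11.51 ± 0.35 (limma adjusted p = 0.00465). Igfbp6, a carrier that prefers IGF2, fell by 0.43 (SE 0.12, limma adjusted p = 0.0216); the call ended in the fit without ATC replicate 2 and PTC replicate 5 (-0.40, limma adjusted p = 0.0773). Igfbp1, Igfbpl1 and the blood carrier subunit gene Igfals did not pass.

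Among pappalysin inhibitors and other proteases of binding proteins, 1 of 7 rose and 1 fell. Htra1, a secreted serine protease that can cleave IGFBP5, was 8.44, 7.79, 8.05, 8.53 and 7.87 in PTC replicates 1 to 5 and 11.43, 10.63, 10.74, 11.21 and 11.35 in ATC replicates 1 to 5. All ATC tumours were more than 2 log2 units above all PTC tumours, a difference of 2.94 (SE 0.19, limma adjusted p = 1.82e-05). Adam28, a metalloprotease that can cleave IGFBP3, fell by 1.40 from 7.85 ± 0.52 to 6.45 ± 0.13 (SE 0.21, limma adjusted p = 0.000996). The stanniocalcins, which bind and inhibit the pappalysins, did not pass, with differences of 0.38 for Stc1 (limma adjusted p = 0.290) and 0.15 for Stc2 (limma adjusted p = 0.732). The Stc2 difference was -0.010 without ATC replicate 5.

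Of 12 genes of insulin receptors and the adaptors next to the receptors, 2 rose and 1 fell. Irs1, the docking protein that links IGF1R to PI3K, was 7.56, 7.44, 7.28, 7.60 and 7.37 in PTC replicates 1 to 5 and 9.43, 8.78, 9.21, 8.20 and 8.78 in ATC replicates 1 to 5. The groups were separate, with ATC replicate 4 the lowest of its group, and the difference was 1.43 (SE 0.19, limma adjusted p = 0.00059). Its relative Irs2 differed by 0.15 (SE 0.12, limma adjusted p = 0.410), and the insulin receptor gene Insr by -0.32 (SE 0.12, limma adjusted p = 0.0879). Of the 2 related inhibitory adaptors, Grb14 fell by 1.18 (SE 0.27, limma adjusted p = 0.0101) and the imprinted gene Grb10 rose by 0.71 (SE 0.22, limma adjusted p = 0.0408). The Grb10 call ended without any of the 5 PTC arrays or ATC replicate 3, 4 or 5, each left out alone (differences 0.58 to 0.77, limma adjusted p 0.0536 to 0.0907). Insr passed without ATC replicate 4 (-0.41, limma adjusted p = 0.0195).

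In the PI3K, AKT, mTOR and FOXO list 4 of 19 genes rose and 0 fell, beside 11.5% and 9.72% of all genes. Eif4ebp1, a translation repressor inactivated by mTOR, rose by 0.70 (SE 0.12, limma adjusted p = 0.00174). Rptor, the scaffold of mTOR complex 1, rose by 0.55, the kinase gene Akt1 by 0.42 and the PI3K subunit gene Pik3cb by 0.34 (limma adjusted p = 0.0288, 0.0417 and 0.0232). With single arrays left out, the Rptor call was lost for PTC replicates 2 and 3 (0.48 to 0.51, limma adjusted p 0.0684 to 0.0705), and that of Pik3cb was lost for PTC replicates 1, 3 and 4 and for ATC replicate 3 (0.30 to 0.33, limma adjusted p 0.051 to 0.0583). That of Akt1 ended without any of the 5 PTC arrays or ATC replicate 3 or 5 (0.33 to 0.45, limma adjusted p 0.0516 to 0.0926).

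In the growth hormone axis that drives Igf1 in many tissues, 3 of 6 genes fell and 0 rose. The kinase gene Jak2 fell by 0.54 (SE 0.10, limma adjusted p = 0.00313), and the feedback inhibitors Cish and Socs2, both induced by STAT5, fell by 0.63 (SE 0.13, limma adjusted p = 0.00593) and 0.51 (SE 0.13, limma adjusted p = 0.0171). The receptor gene Ghr differed by -0.13 (SE 0.16, limma adjusted p = 0.635), and Stat5a and Stat5b did not pass.

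The last 2 lists concern Igf2 and its clearance. Igf2bp3, an oncofetal protein that binds IGF2 mRNA, rose by 0.42 (SE 0.14, limma adjusted p = 0.0475), while Igf2bp1 and Ins2, which lies close to Igf2 on chromosome 7, did not pass. The Igf2bp3 call ended without any of the 5 PTC arrays or ATC replicate 1, 3 or 4 (0.30 to 0.46, limma adjusted p 0.0554 to 0.0984). H19 and Igf2bp2 were not analysed here. Of 5 measured genes of mannose 6-phosphate sorting and other receptors of binding proteins, Gnptg, a subunit of the enzyme that makes the sugar tag recognised by IGF2R, fell by 0.75 (SE 0.10, limma adjusted p = 0.000617). Lrp1, an endocytic receptor that also binds IGFBP3, rose by 1.05 (SE 0.16, limma adjusted p = 0.00104); it is strongly expressed by macrophages, whose 10 measured markers all rose, and their part in the Lrp1 difference was not tested.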

How the data were processed

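The series table deposited by the authors holds normalized values of 35556 probe sets on 10 arrays, read as log2 intensities from their range (2.79 to 14.15). Per the labels' protocols, total RNA was extracted with Qiazol and labelled with biotin. Per the submitters' processing notes, Affymetrix Power Tools and limma were used; how background, summarisation and normalization were handled, and with which genome build, is not given in the sources used here. Array medians were 7.25 to 7.34. The number of arrays limits the precision.

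Of the probe sets, 21789 had 1 gene symbol, 1621 several and 12146 none here. The contrast ATC minus PTC was fitted over all 19938 genes with lmFit and eBayes of limma 3.58.1 (R 4.3.3), without block or filter, and intervals are 95% intervals of that fit. The procedure was also run on simulated normal values with the same SD in both groups and few shifted genes. That setting lacks the wider spread in ATC and the large share of genes called here. It therefore does not show how the fit performs under those conditions. Promoter windows came from RefSeq.

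The members, pathway lists, marker lists and alternatives were chosen with earlier results of these data known, and the motifs after the differences were seen. Named are the 10 members, every pathway gene that passed (at most 5 a list), Insr, Irs1, Irs2, Stc1, Stc2, Igfbp6, Igfbp7, Ghr, H19 and Igf2bp2 in any case, and for the member with the largest fall and rise the 3 genes nearest in course, predicted genes left out; of the markers, Tg, Epcam and Csf1r are named from a fixed set. Genes listed beside these as not passing were named after their values were seen. Alternatives took the replicate number as a block, averaged the probe sets of each gene, adjusted over every probe set, kept only genes above the lower quartile or above the median of all means, repeated quantile normalization, centred arrays on their medians, used robust estimation with a variance trend, weighted the arrays, added a covariate of Y-linked genes, left out each array, and left out ATC replicate 2 and PTC replicate 5 together. Python 3.11.15, numpy 2.4.6, pandas 2.3.3 and matplotlib 3.10.9 were used for tables and figures.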

Additional observations from a re-analysis of the deposited data

Results flagged for a closer look

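In groups of 5 tumours, 4 of the 76 groups examined (38 named genes in 2 tumour types) held a highest or lowest tumour whose gap to its nearest neighbour, divided by the group's range, was above 0.71, Dixon's 95% critical value for 5 samples. Of the 4, 0 belonged to the 20 groups of the 10 IGF system genes. Chance puts about 1 in 20 groups above this value. Irs2 was 8.13 in PTC replicate 5 and 7.75 to 7.85 in the other PTC tumours. Adam28 was 6.68 in ATC replicate 2 and 6.36 to 6.43 in the other ATC tumours. Igf2bp3 was 7.24 in PTC replicate 2 and 7.03 to 7.09 in the other PTC tumours. Mal2 was 11.08 in PTC replicate 1 and 11.56 to 11.70 in the other PTC tumours.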

How the results depend on the processing

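Over 21 alternatives, 205 of 210 values of the 10 genes kept their direction and their side of the threshold. The 5 exceptions were those of Igf2 with 1 array left out (1.45 to 2.26 over the 10 left-out arrays, and 2.30 without ATC replicate 2 and PTC replicate 5 together, where the call held), and the number of members that rose was accordingly 0 to 1, while 3 fell each time. With 1 array left out, 4 to 10 pathway genes rose. The labels state no pairing of tumours by replicate number. Deviations of same-numbered arrays correlated at -0.086 to 0.12, above 0.1 in 1 of 5 pairs. Of the PTC arrays, 1 of 5 correlated best with its own number. Correlations over so few pairs cannot exclude a pairing. With the replicate block, 1 member rose and 3 fell, and 6 pathway genes rose and 8 fell. Over all genes, 2063 rose and 1699 fell with the block, against 2297 and 1937 without it. Among the other 28 named genes, 540 of 585 values kept direction and side, 40 lost the call, 4 gained it and 1 turned its direction (Stc2, -0.010 without ATC replicate 5, and 0.37 without ATC replicate 2 and PTC replicate 5). The block ended the calls of Rptor (0.55, limma adjusted p = 0.0623), Pik3cb (0.34, limma adjusted p = 0.0632) and Igf2bp3 (0.42, limma adjusted p = 0.0739). Those of Akt1, Grb10 and Igf2bp3 also ended in 2, 3 and 3 of the 11 alternatives that kept all arrays or left out 2, block included (limma adjusted p 0.0516 to 0.0739). Insr passed in 3 of them (limma adjusted p 0.0327 to 0.0404). Detection above background is unknown, which limits the values of dim genes.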
